A study of Homo sapiens with 4 samples.

Results

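SIRT1, the NAD-dependent deacetylase of histones and transcription factors, was followed together with 3 genes known to set its activity or level and 6 lysine acetyltransferases that act on overlapping substrates. The 3 regulators were CCAR2, whose protein (also called DBC1) binds and inhibits SIRT1, RPS19BP1, whose protein (also called AROS) was described as an activator of SIRT1, and HIC1, a transcriptional repressor that was reported to act on the SIRT1 promoter. The acetyltransferases were EP300, CREBBP, KAT2A, KAT2B, KAT5 and KAT8. The 10 genes were chosen by symbol, all 10 were found among the 16878 genes of the tables, and 9 of them had a mean of at least 1 FPKM and were tested. FPKM counts fragments for each kilobase of a gene's transcript and divides by the size of the library. A level in FPKM is therefore per length and can be compared between genes.

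Acetyl groups on lysines are written by acetyltransferases and removed by deacetylases, and SIRT1 uses NAD for the removal. EP300 and CREBBP are large paralogous coactivators, KAT2A and KAT2B are paralogous catalytic subunits of coactivator complexes such as SAGA and ATAC, KAT5 is the catalytic subunit of NuA4/TIP60, and KAT8 acetylates histone H4 at lysine 16 in the MSL and NSL complexes. SIRT1 can deacetylate several of these enzymes as well as their substrates. In pancreatic ductal carcinoma SIRT1 has been studied for its part in growth, autophagy and stem-like properties.

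RNA-seq was carried out on PANC-1 cells, an established human pancreatic ductal carcinoma line, in 2 Control libraries and in 2 libraries whose cells had received an siRNA (small interfering RNA) directed at SIRT1 (siSIRT1), all taken at 48 h. The labels name no genotype or agent besides siSIRT1, and they do not say what Control cells received. They also do not say whether the libraries of a group came from separate cultures, so p-values measure the spread between these samples, which may be technical. RNA was measured from whole cultures, in which fewer cells and less RNA per cell cannot be told apart, and protein and enzyme activity were not measured. The study describes the use of 1 selected siRNA per gene, so effects of knockdown and of that siRNA cannot be told apart.

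The siRNA that the study lists against SIRT1 and its site are shown because they define the knockdown. The listed strand has the sequence of the message, and its complement, derived here, is the strand that pairs with it. In the complement, capitals mark the seed (bases 2 to 8), and in the listed strand they mark the bases opposite the seed.
siSIRT1 listed strand: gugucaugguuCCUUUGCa
siSIRT1 guide strand: uGCAAAGGaaccaugacac
SIRT1 target site: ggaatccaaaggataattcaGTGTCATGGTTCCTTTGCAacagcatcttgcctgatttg
In the site, capitals mark the 19 bases matched by the siRNA within 59 bases of the canonical SIRT1 transcript (GENCODE 44 annotation on GRCh37, plus strand of chromosome 10). The match is coding and spans an exon junction, with 8 bases in exon 5 (chr10:69666687-69666694) and 11 bases in exon 6 (chr10:69667803-69667813) of 9. The full match was found in none of the canonical transcripts of the other 9 genes. The letters CCTTTGC, the complement of the seed on the transcript strand, occurred at 2 positions in SIRT1, at 1160 and at 1468 from the transcript start. They occurred in none of the other 9 transcripts, and in 3223 of 11538 canonical transcripts of tested genes (27.9%). A match of letters is a description and not a shown site of action.

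The libraries were similar in estimated depth. Steps of 1 read in the low FPKM values gave approximate depths of 8720000 and 8770000 reads in Control, and of 8465000 and 8835000 in siSIRT1. Pearson's r across tested genes on the log2(FPKM + 1) scale was 0.995 between the Control libraries, 0.993 between the siSIRT1 libraries and 0.967 to 0.971 between groups. All 5 markers of ductal epithelium reached 1 FPKM in at least 1 library, led by KRT8 with 2164.01 to 2745.12 FPKM. KRT7 was low, at 2.89 to 4.04 FPKM, and EPCAM measured 5.34 to 11.21 FPKM. No acinar, endothelial or fibroblast marker in the tables reached 1 FPKM. The 2 immune markers in the tables, PTPRC and CD14, summed to 4.46 to 6.71 FPKM. CD14 measured 5.11 and 5.49 FPKM in Control, against 4.45 and 3.17 FPKM in siSIRT1, above KRT7 in every library.

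Of the 12191 genes tested with limma on log2(FPKM + 1), 4521 had a Benjamini-Hochberg adjusted p under 0.05 (37.1%). Of these, 2930 were higher (24.0%) and 1591 lower (13.1%) in siSIRT1. The median difference over all tested genes was 0.07 on the log2(FPKM + 1) scale. Median-of-ratios scaling moved that median to -0.002, and the calls to 2023 higher and 2053 lower, so directions of small differences depend on the scaling. The number of called genes was 2744 without Control replicate 1 and 2691 without Control replicate 2. Of the 9 genes of interest that were tested, 2 passed (22.2%), SIRT1 as the only fall and RPS19BP1 as the only rise. Leaving SIRT1 aside, 1 of 8 passed (12.5%). These shares lie below the share of all tested genes, and over 9 genes they are a description only.

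SIRT1, the targeted gene (Entrez 23411, chr10:69644414-69678147, plus strand), fell to 18.6% of its Control level. It measured 10.46 and 10.25 FPKM in Control, against 1.80 and 2.05 FPKM in siSIRT1, with means of 10.4 ± 0.15 and 1.93 ± 0.18 (SD, n = 2 each). Both siSIRT1 libraries lay far below both Control libraries. Approximately 371 and 366 reads of SIRT1 were counted in the Control libraries, and 62 and 74 remained in the siSIRT1 libraries, so the remaining message was well above detection. The difference was -1.96 on the log2(FPKM + 1) scale (SE 0.11, 95% interval -2.22 to -1.70, limma adjusted p = 1.33e-05). The adjusted p ranged from 7.06e-09 to 0.00422 over the 10 other settings, and the difference from -2.02 to -1.90 when 1 library was left out. With SIRT1 at the 64.7th percentile of all genes of the tables in Control, the fall started from a moderate level.

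**Figure D1:**
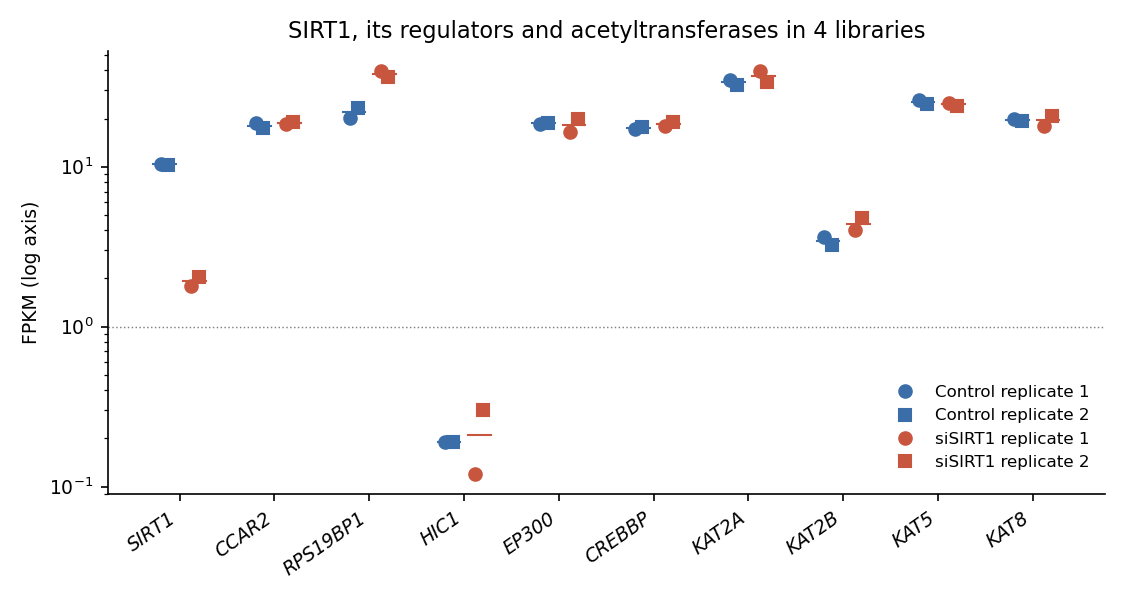
FPKM of SIRT1, its 3 regulators and the 6 acetyltransferases in each of the 4 libraries on a log axis, with a short bar at each group mean and a dotted line at 1 FPKM, the minimum mean level for testing. SIRT1 lies lower and RPS19BP1 higher in both siSIRT1 libraries than in both Control libraries, HIC1 stays below 1 FPKM, and the others stay close to their Control level.

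RPS19BP1 (Entrez 91582, chr22:39925098-39928753, minus strand, 4 exons) rose 1.73-fold. This small nucleolar protein binds the ribosomal protein RPS19 and was named for its activation of SIRT1. It measured 20.24 and 23.44 FPKM in Control, against 39.46 and 36.28 FPKM in siSIRT1, with means of 21.8 ± 2.3 and 37.9 ± 2.3 (SD, n = 2 each). The 2 groups were well separated, by more than the spread within either. About 138 and 160 reads in Control, and 261 and 250 in siSIRT1, stood behind these values. The difference was 0.77 on the log2(FPKM + 1) scale (SE 0.09, 95% interval 0.57 to 0.97, limma adjusted p = 0.000308). Over the other 10 settings the adjusted p ran from 1.29e-06 to 0.0134 and the difference from 0.55 to 0.79, and without 1 library the difference ran from 0.67 to 0.87 with adjusted p of at most 0.00452.

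The canonical RPS19BP1 transcript has 820 bases, and differences in these libraries moved with transcript length. Among 514 tested genes within 25% of that length, the median difference was 0.21 on the log2(FPKM + 1) scale, with a middle 50% from -0.03 to 0.44. Of these 514 genes, 262 had a limma adjusted p under 0.05, 221 of them higher and 41 lower in siSIRT1. Among all 514, called or not, 36 had a difference at or above that of RPS19BP1, itself included. The median declined from 0.33 for genes near 431 bases to -0.02 for genes near 9742 bases. When the length trend was removed from each library, the RPS19BP1 difference was 0.55 with an adjusted p of 0.000686, so the rise was smaller and still passed. The part that length plays in the remaining rise was not tested further.

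**Figure D2:**
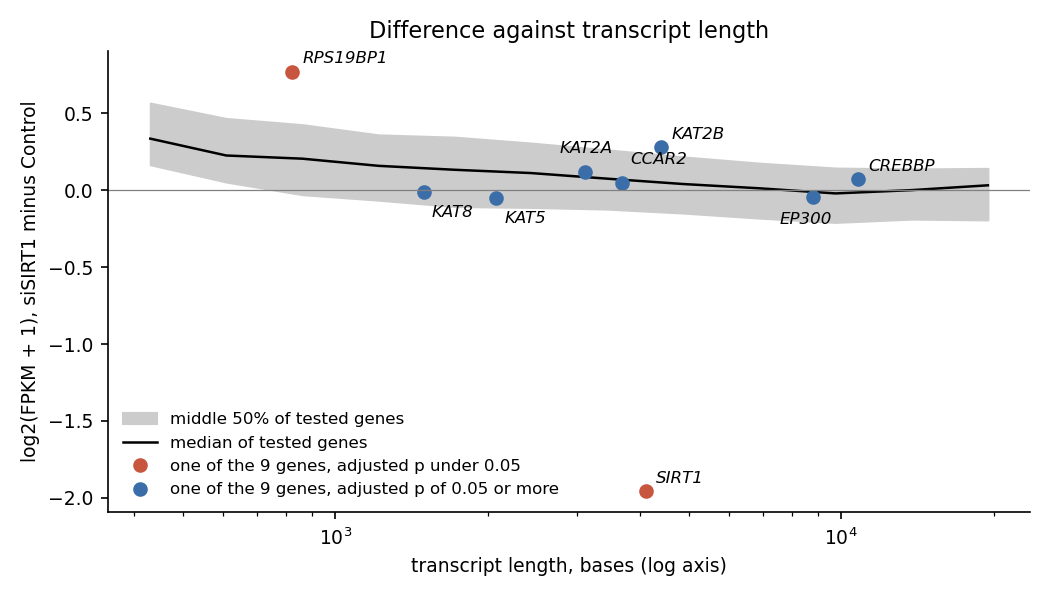
Difference between siSIRT1 and Control on the log2(FPKM + 1) scale against canonical transcript length in bases (log axis), with the median (line) and the middle 50% (grey) of tested genes by length and the 9 genes of interest as points, coloured by whether the adjusted p was under 0.05. RPS19BP1 at 820 bases lies above and SIRT1 at 4107 bases far below the grey range, whose median is higher for short transcripts.

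CCAR2 (Entrez 57805, chr8:22462270-22477984, plus strand), the inhibitor, did not pass the test. It measured 18.73 and 17.37 FPKM in Control, against 18.39 and 18.92 FPKM in siSIRT1, with means of 18.1 ± 0.96 and 18.7 ± 0.38 (SD, n = 2 each). The siSIRT1 values overlapped the Control range. The difference was 0.05 on the log2(FPKM + 1) scale (SE 0.08, 95% interval -0.13 to 0.22, limma adjusted p = 0.681), and its sign turned under every scaling between libraries, to -0.04 with median-of-ratios. On the FPKM + 1 scale the interval spans 0.913 to 1.17 times the Control level, so larger changes of this gene lie outside it. CCAR2 overlaps BIN3 on the opposite strand, and whether the counting used strand is not given in the sources used here.

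HIC1 (Entrez 3090, chr17:1958397-1966535, plus strand) was at the edge of detection. This zinc finger repressor, often silenced by promoter methylation in tumors, measured 0.19 FPKM in both Control libraries and 0.12 and 0.30 FPKM in siSIRT1, about 11, 11, 7 and 18 reads. The siSIRT1 libraries lay on either side of the Control value. Below the minimum mean of 1 FPKM it was left out of the test, and without that minimum its difference was 0.02 with an adjusted p of 0.895. A change of HIC1 was not detectable at this depth. HIC1 overlaps SMG6 on the opposite strand, with the same limit as CCAR2.

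None of the 6 acetyltransferases passed the limma test, 0 at an unadjusted p under 0.05 as well, beside 37.1% of all tested genes with an adjusted p under 0.05. Their differences had a median of 0.03 on the log2(FPKM + 1) scale, against 0.07 for all tested genes, and 3 were positive and 3 negative. Their summed level was 120.6 and 116.5 FPKM in Control, against 121.4 and 122.4 FPKM in siSIRT1. The sum was thus slightly higher in both siSIRT1 libraries, by 1.03 times on average, in the FPKM as deposited. The median-of-ratios factors, by which each library is divided, were 0.967 and 0.978 in Control, against 1.02 and 1.04 in siSIRT1. The direction of this small difference therefore depends on the scaling, and the sum was not tested.

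EP300 (chr22:41488596-41576081, plus strand) encodes the coactivator p300. It measured 18.56 and 18.86 FPKM in Control, against 16.54 and 19.82 FPKM in siSIRT1, so the siSIRT1 libraries spanned the Control values. The difference was -0.04 (log2(FPKM + 1) scale, SE 0.09, 95% interval -0.26 to 0.17, limma adjusted p = 0.745). Its paralog CREBBP (chr16:3775055-3930714, minus strand), which encodes CBP, measured 17.23 and 17.63 FPKM in Control, against 17.86 and 18.93 FPKM in siSIRT1. Its groups did not overlap, which also held for 69.0% of all tested genes. The difference of 0.07 (SE 0.08, 95% interval -0.10 to 0.25, limma adjusted p = 0.491) did not pass, and its sign turned under quantile, median-of-ratios and upper-quartile scaling. The ratio of EP300 to CREBBP was 1.08 and 1.07 in Control, against 0.926 and 1.05 in siSIRT1. How reads shared by the paralogs were assigned is not given in the sources used here, and EP300-AS1 overlaps EP300, and DPPA3P6 CREBBP, on the opposite strand.

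KAT2A (chr17:40265129-40273385, minus strand), also called GCN5, was the most abundant of the 6. It measured 35.05 and 32.60 FPKM in Control, against 39.75 and 33.96 FPKM in siSIRT1, with 1 siSIRT1 library inside and 1 above the Control range. The difference was 0.12 (log2(FPKM + 1) scale, SE 0.09, 95% interval -0.08 to 0.31, limma adjusted p = 0.323). Without siSIRT1 replicate 2 it was 0.23 with an adjusted p of 0.0492, and without siSIRT1 replicate 1 it was 0.01 with 0.952, so 1 library decides this value. The paralog KAT2B (chr3:20081938-20195896, plus strand), also called PCAF, was expressed at a far lower level. It measured 3.66 and 3.24 FPKM in Control, against 4.04 and 4.78 FPKM in siSIRT1, and both siSIRT1 libraries exceeded both Control libraries. The groups did not overlap for 4 of the 9 genes of interest tested, beside 69.0% of all tested genes. The KAT2B difference was the largest among the 6, at 0.28 (SE 0.13, 95% interval -0.01 to 0.57, limma adjusted p = 0.120). It did not pass in any of the 10 other settings of limma, where the adjusted p ran from 0.0877 to 0.244. On the FPKM + 1 scale the interval runs from 0.992 to 1.49 times the Control level, so a rise of that size is not set aside by the test. The ratio of KAT2A to KAT2B was 9.58 and 10.1 in Control, against 9.84 and 7.1 in siSIRT1, with overlapping groups.

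KAT5 (chr11:65479723-65487075, plus strand), also called TIP60, acetylates histones H2A and H4 and acts in the DNA damage response. It measured 26.28 and 24.76 FPKM in Control, against 25.17 and 24.01 FPKM in siSIRT1. The siSIRT1 range overlapped the Control range, and the difference was -0.05 (log2(FPKM + 1) scale, SE 0.07, 95% interval -0.22 to 0.11, limma adjusted p = 0.615). The KAT5 difference was -0.17 with the length trend removed (limma adjusted p = 0.0795) and -0.15 with the GC trend removed (adjusted p = 0.102). RNASEH2C overlaps KAT5 on the opposite strand. KAT8 (chr16:31128985-31142680, plus strand), also called MOF, writes the H4 lysine 16 mark that SIRT1 removes. It measured 19.79 and 19.40 FPKM in Control, against 18.08 and 20.85 FPKM in siSIRT1, on either side of the Control values. Its difference was -0.01 (SE 0.09, 95% interval -0.21 to 0.18, limma adjusted p = 0.925), which allows 0.865 to 1.14 times the Control level on the FPKM + 1 scale.

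**Figure D3:**
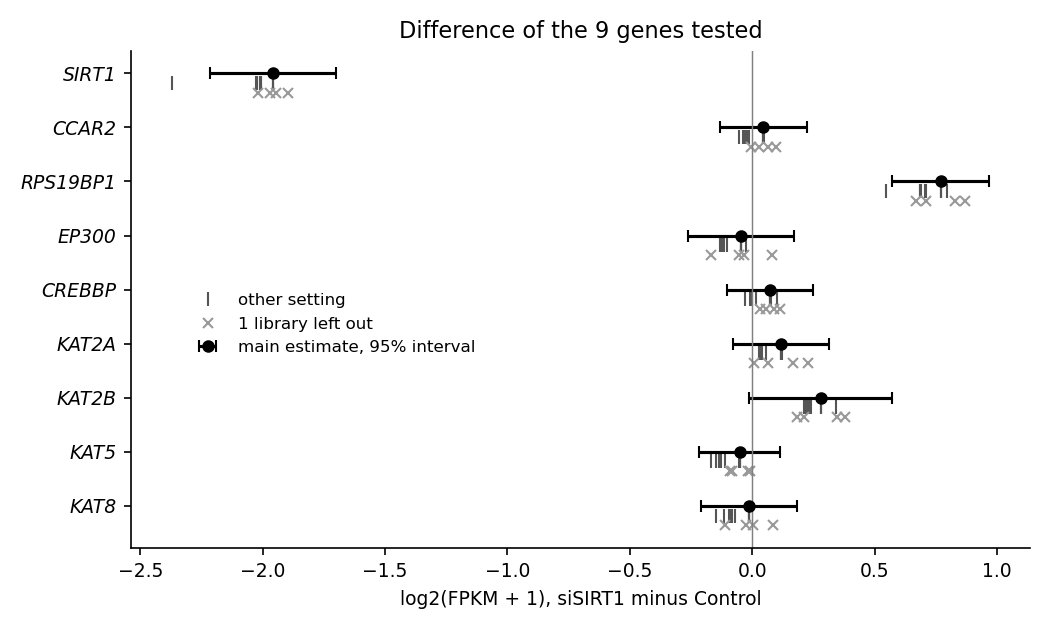
Difference between siSIRT1 and Control on the log2(FPKM + 1) scale for the 9 genes tested, with the estimate (point) and its 95% interval (bar), the estimates under 10 other settings (ticks) and with 1 library left out (crosses). The intervals of SIRT1 (-2.22 to -1.70) and RPS19BP1 (0.57 to 0.97) lie away from 0, while those of the other 7 span it.

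In Control, the levels ran in the order KAT2A, KAT5, RPS19BP1, KAT8, EP300, CCAR2, CREBBP, SIRT1, KAT2B and HIC1, from a mean of 33.8 to 0.19 FPKM. Neighbours in that order overlapped between libraries for EP300 with CCAR2 and for CCAR2 with CREBBP, and for no other pair. In siSIRT1, RPS19BP1 (37.9 FPKM) and KAT2A (36.9 FPKM) led with overlapping ranges, ahead of KAT5. KAT8, CCAR2, CREBBP and EP300 followed between 18.2 and 19.5 FPKM, each overlapping the next, and SIRT1 moved below KAT2B, with 1.80 and 2.05 FPKM against 4.04 and 4.78 FPKM.

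With SIRT1 message reduced, the levels of the other genes relative to SIRT1 were higher in both siSIRT1 libraries than in both Control libraries. The level of CCAR2 was 1.79 and 1.69 times that of SIRT1 in the Control libraries, and 10.2 and 9.23 times in the siSIRT1 libraries. For RPS19BP1 the ratio was 1.93 and 2.29 in Control, against 21.9 and 17.7 in siSIRT1. The summed 6 acetyltransferases stood at 11.5 and 11.4 times SIRT1 in Control and at 67.5 and 59.7 times in siSIRT1. These ratios contain the fall of SIRT1 itself and are no separate evidence on the numerators. A ratio without SIRT1, that of RPS19BP1 to CCAR2, was 1.08 and 1.35 in Control, against 2.15 and 1.92 in siSIRT1, so the activator and the inhibitor changed unequally.

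The makeup of the 6 acetyltransferases changed little. KAT2A held 29.1% and 28.0% of their summed FPKM in Control, against 32.7% and 27.8% in siSIRT1, and KAT5 held 21.8% and 21.3% against 20.7% and 19.6%. KAT2B, the smallest, held 3.04% and 2.78% against 3.33% and 3.91%. The groups did not overlap for KAT2B and KAT5 and overlapped for the other 4. In FPKM, the groups did not overlap for 69.0% of all tested genes. These shares were not tested.

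**Figure D4:**
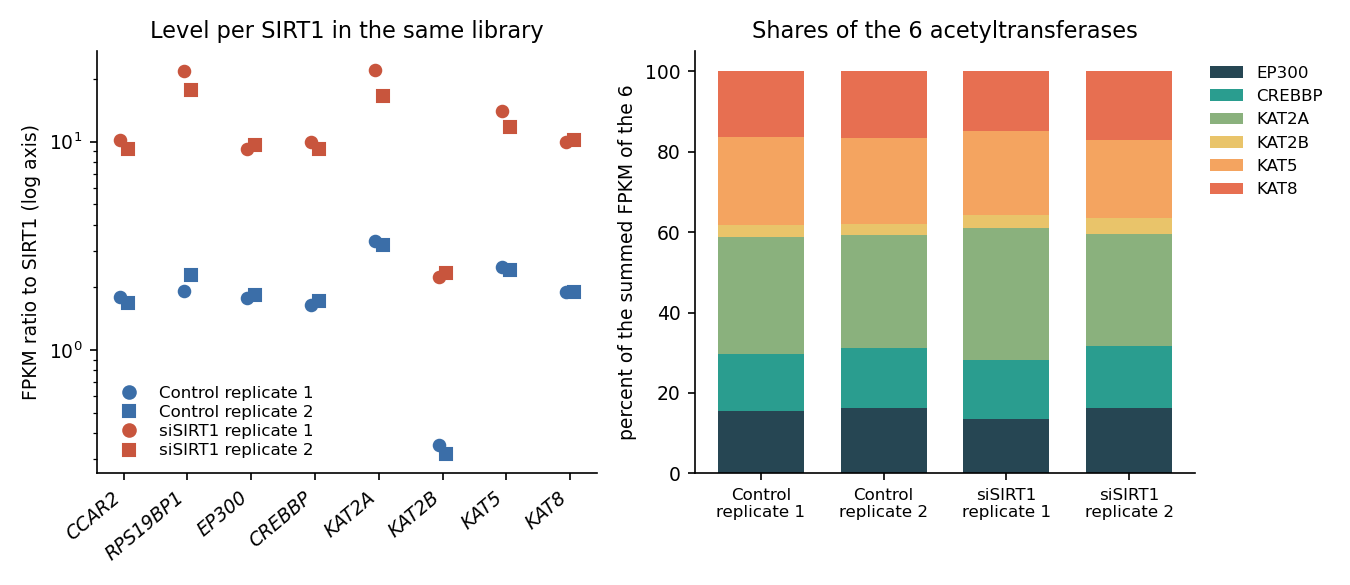
Left, FPKM of each gene divided by that of SIRT1 in the same library (log axis) for CCAR2, RPS19BP1 and the 6 acetyltransferases. Right, percent of the summed FPKM of the 6 acetyltransferases held by each in the 4 libraries. All ratios to SIRT1 are higher in siSIRT1, with the largest increase of the mean ratio over Control for RPS19BP1 (9.38 times). The shares differ by a few percentage points, with KAT2A the largest at 27.8% to 32.7%.

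The partners of these enzymes were then examined in 5 lists of other acetyltransferases and complex subunits, which together hold 80 genes, all tested. Of these, 18 passed (22.5%, beside 37.1% of all tested genes), 14 higher and 4 lower, with a median of 0.09 on the log2(FPKM + 1) scale. Over all 7 lists used, 33 of 120 genes passed (27.5%). Without the minimum level 21 passed, and 3531 of all 16453 genes then tested. Fewer list genes passed when either Control library was left out, which also held for all tested genes. Among 17 other acetyltransferases, most of them acting on lysines, 4 passed (23.5%), 3 higher and 1 lower, and fewer passed when either Control library was left out. NAA60, a Golgi-associated N-terminal acetyltransferase also reported to act on histone H4, measured 29.04 and 26.08 FPKM in Control, against 42.75 and 38.41 FPKM in siSIRT1 (0.54, limma adjusted p = 0.00126). ESCO1, which acetylates cohesin, rose from 2.83 and 2.91 to 4.26 and 4.37 FPKM (0.46, adjusted p = 0.0149), and did not pass without Control replicate 1 (adjusted p = 0.094) or Control replicate 2 (0.0753). HAT1, which acetylates newly made histone H4, rose from 24.32 and 26.08 to 36.74 and 32.73 FPKM (0.45, adjusted p = 0.00288). KAT14, the ATAC subunit with its own acetyltransferase domain, fell from 3.87 and 4.64 to 3.10 and 2.92 FPKM (-0.39, adjusted p = 0.0431). The KAT14 call was lost without the minimum level (adjusted p = 0.0969) and when any 1 library was left out (0.0682 to 0.308). The calls of NAA60 and HAT1 held in all 10 other settings and without any 1 library.

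SAGA and ATAC are the coactivator complexes that carry KAT2A or KAT2B. Across all tested genes, 37.1% passed the test. Of 28 subunits 8 passed (28.6%), 5 higher and 3 lower, with a median of 0.13. Fewer passed when either Control library was left out, which also held for all tested genes. ENY2, a small subunit of the SAGA deubiquitinase module that also acts in mRNA export, rose from 6.51 and 6.91 to 12.07 and 10.56 FPKM (0.67, limma adjusted p = 0.0014). SF3B5, shared with the splicing factor SF3b, rose from 46.43 and 48.22 to 78.44 and 65.98 FPKM (0.59, adjusted p = 0.00094), and by 0.34 with the length trend removed (adjusted p = 0.00261). TADA2B, the SAGA form of the adaptor next to the acetyltransferase, rose from 7.34 and 6.98 to 9.38 and 9.79 FPKM (0.38, adjusted p = 0.0153), and did not pass without Control replicate 1 (adjusted p = 0.069) or Control replicate 2 (0.119). The falls were smaller. SUPT20H, a SAGA core subunit, went from 12.21 and 12.70 to 9.28 and 10.49 FPKM (-0.31, adjusted p = 0.0332), and TAF10, shared with TFIID, from 196.05 and 178.97 to 167.51 and 151.68 FPKM (-0.23, adjusted p = 0.0348). USP22, the SAGA deubiquitinase that was also reported to stabilise SIRT1 protein, fell from 82.31 and 80.42 to 67.42 and 71.55 FPKM (-0.23, adjusted p = 0.0187). These 3 falls depend on the processing, since SUPT20H and TAF10 did not pass without the minimum level, TAF10 and USP22 did not pass without the mean-variance trend, and none of the 3 passed without Control replicate 1 (adjusted p = 0.122 to 0.336) or Control replicate 2 (0.0833 to 0.194). SUPT20H was also lost without siSIRT1 replicate 1 (adjusted p = 0.0975) and TAF10 without siSIRT1 replicate 2 (0.105).

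NuA4/TIP60, the complex of KAT5, had 1 of 16 subunits past the test (6.25%, beside 37.1% of all tested genes). It was RUVBL1, an AAA ATPase shared with other remodelers, with 54.73 and 52.37 FPKM in Control, against 59.73 and 62.43 FPKM in siSIRT1 (0.19, limma adjusted p = 0.0434), and it no longer passed under any of the 4 scalings between libraries (adjusted p = 0.159 to 0.287). The MSL and NSL complexes of KAT8 had 2 of 11 (18.2%), HCFC1 (0.20, adjusted p = 0.0375), a host cell factor bound by many transcription factors, and MCRS1 (0.22, adjusted p = 0.0453). Neither passed under any scaling between libraries. The list for the complexes of KAT6A, KAT6B and KAT7, which holds scaffold or reader subunits only, had 3 of 8 (37.5%). BRPF3 rose from 7.32 and 8.50 to 11.52 and 11.59 FPKM (0.50, adjusted p = 0.00541) and passed in all 10 other settings, though not without Control replicate 1 (adjusted p = 0.0586). ING5, which reads methylated H3 lysine 4, and BRPF1 differed by 0.35 (adjusted p = 0.0295) and 0.33 (adjusted p = 0.038). Of the 10 other settings, ING5 passed in 5 and BRPF1 in 4. Neither passed under median-of-ratios scaling, upper-quartile scaling or equal FPKM sums. Without 1 library the calls of these 3 complex groups were unstable, with 0 to 3 for NuA4/TIP60, 0 to 3 for MSL and NSL and 0 to 2 for the KAT6 and KAT7 complexes. All 5 named genes other than BRPF3 were lost without Control replicate 1 (adjusted p = 0.0924 to 0.281) and without Control replicate 2 (0.154 to 0.331).

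**Figure D5:**
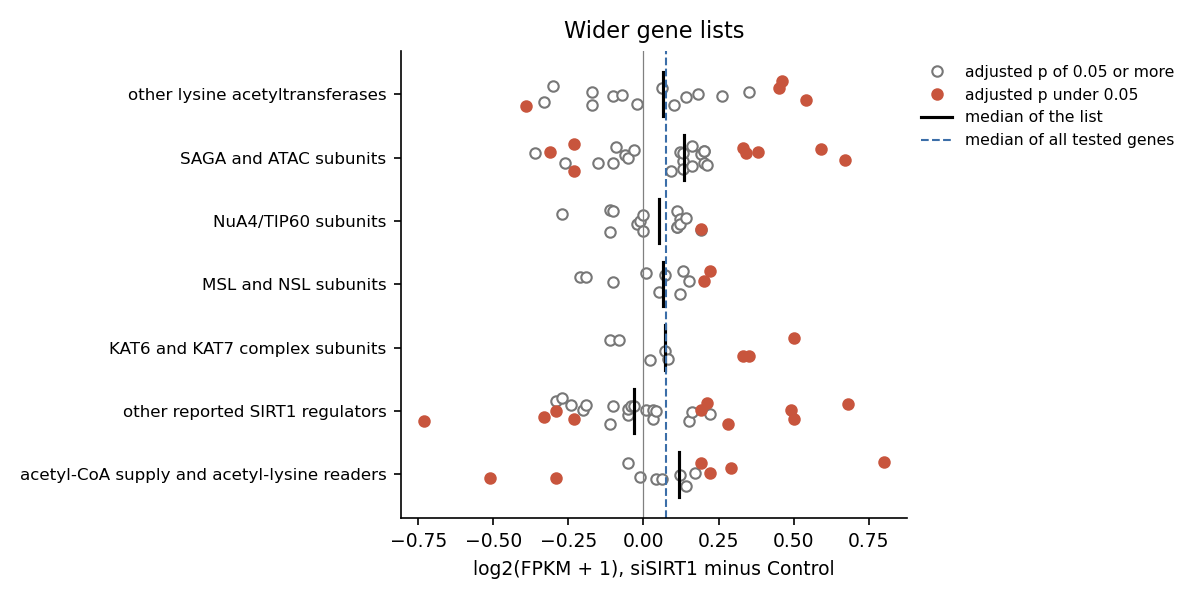
Difference between siSIRT1 and Control on the log2(FPKM + 1) scale for each gene of 7 lists, filled where the adjusted p was under 0.05, with the median of each list (black) and of all tested genes (dashed). The list medians lie between -0.03 and 0.13, near the median of all tested genes at 0.07, and single genes reach 0.80 and -0.73.

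Further reported regulators of SIRT1 formed a list of 28 genes, of which 10 passed (35.7%, beside 37.1% of all tested genes). Of the 10, 6 were higher and 4 lower, and the median of the list was -0.03. Fewer of the list passed when either Control library was left out, which also held for all tested genes. Among kinases, DYRK3, reported to phosphorylate and activate SIRT1, rose from 4.01 and 4.30 to 7.07 and 7.45 FPKM (0.68, limma adjusted p = 0.00167). CDK1, the mitotic kinase that was reported to phosphorylate SIRT1, rose from 13.62 and 14.93 to 20 and 20.9 FPKM (0.49, adjusted p = 0.00207). E2F1, reported to induce SIRT1 transcription, rose from 12.65 and 12.09 to 18.42 and 17.46 FPKM (0.50, adjusted p = 0.00178). SETD7, a lysine methyltransferase reported to bind and methylate SIRT1, showed the deepest fall of the list, from 9.71 and 9.38 to 4.54 and 6.25 FPKM (-0.73, adjusted p = 0.00356). These 4 genes passed in all 10 other settings and without any 1 library.

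NAMPT, the enzyme of NAD salvage that supplies the SIRT1 cosubstrate, fell from 12.37 and 11.86 to 8.92 and 10.04 FPKM (-0.33, limma adjusted p = 0.027), and the call was lost without the minimum level (adjusted p = 0.0645). PPARG, a nuclear receptor reported to repress SIRT1, fell from 25.59 and 23.52 to 20.44 and 19.26 FPKM (-0.29, adjusted p = 0.0177), with an adjusted p of up to 0.0497 over the other settings. Neither passed without Control replicate 1 (adjusted p = 0.174 for NAMPT and 0.187 for PPARG) or Control replicate 2 (0.103 and 0.0503). NAMPT was also lost without siSIRT1 replicate 1 (adjusted p = 0.0808) and PPARG without siSIRT1 replicate 2 (0.0531).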

How the data were processed

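RNA-seq libraries of PANC-1 cells (2 Control, 2 siSIRT1) were prepared by the authors with the provider's standard protocol. The authors deposited FPKM values rounded to 2 decimals, 1 table per library, for 16878 genes. The submitters' processing notes name Bowtie2, HISAT, RSEM and ChIPseeker without role or version; the genome build and use of strand are not given in the sources used here. FPKM are not counts, so limma 3.58.1 (R 4.3.3; lmFit, eBayes with a mean-variance trend) was applied to log2(FPKM + 1) of the 12191 genes whose mean reached 1 FPKM. P-values are two-sided, Benjamini-Hochberg adjusted over all tested genes, with a threshold of 0.05. This scale understates the change of low genes.

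The members and lists were chosen with earlier results of these data known. The text names all 10 members and, per list, the called genes with the 3 largest rises and 3 largest falls. The 10 other settings were a pseudocount of 0.1, no minimum level, quantile, median-of-ratios and upper-quartile scaling, equal FPKM sums, the replicate block, no trend and, added after the data were seen, removal of the length or GC trend (lowess span 0.3). Each library was also left out in turn. Depth was estimated from values of up to 3 reads in 37 to 59 single-exon genes per library. It was searched within a preset range and chosen to bring these same values closest to whole reads. At the chosen depth 74.5% to 86.4% lay within 0.15 of whole reads, which is therefore no separate check of it. Reads per gene derived from the estimated depth are approximate and cover counting error only. Coordinates and transcripts are from GENCODE 44 on GRCh37. The promoter of RPS19BP1 was not analysed here, and none of the 3 endocrine markers looked up was among the 16878 genes.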

Additional observations from a re-analysis of the deposited data

How the results depend on the processing

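SIRT1 and RPS19BP1 kept their direction and their call in all 10 other settings and in all 4 fits without 1 library, and the number of members called was 2 in each of the 10 settings and 2 to 3 without 1 library. The CCAR2 difference (0.05 on the log2(FPKM + 1) scale, not called) turned to -0.0247 with quantile normalization, -0.0379 with median-of-ratios, -0.0312 with upper-quartile scaling, -0.0130 with equal FPKM sums, -0.0182 with the length trend removed and -0.0534 with the GC trend removed, and ran from -0.00563 to 0.0974 without 1 library. The CREBBP difference (0.07, not called) turned to -0.00105 with quantile normalization, -0.0105 with median-of-ratios, -0.00381 with upper-quartile scaling and -0.0288 with the GC trend removed. Without 1 library, EP300 ran from -0.168 to 0.0791, KAT8 from -0.110 to 0.0854 and KAT2A from 0.00647 to 0.228. The genes called ran from 2691 to 4608 without 1 library. The 33 calls in the wider lists became 21 without the minimum level and 12 to 34 without 1 library, with 12 without Control replicate 1 and 12 without Control replicate 2. Of the 27 named list genes, 14 passed in all 10 other settings and 10 of these also without any 1 library. The cause was not tested.

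The replicate numbers are shared between the groups, but 2 pairs cannot show that they pair the samples, and same-numbered libraries correlated by 0.123 in their deviations from the group means. When the replicate number entered the model as a block, 5393 genes passed, the members called stayed at 2 and the wider lists had 41 calls.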

Other observations

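Acetyl-CoA is the donor of every lysine acetylation, and bromodomain proteins read the mark. In a list of 13 genes for acetyl-CoA supply and acetyl-lysine reading, 6 passed the limma test (46.2%, beside 37.1% of all tested genes), 4 higher and 2 lower, with a median of 0.12 on the log2(FPKM + 1) scale. The count depends on the processing, with 3 under each of the 4 scalings between libraries and without the minimum level, and 2 without the mean-variance trend. Fewer also passed when either Control library was left out, which held for all tested genes as well. The acetyl-CoA synthetases moved apart. ACSS1, the mitochondrial enzyme, measured 7.2 and 7.0 FPKM in Control, against 12.45 and 13.72 FPKM in siSIRT1 (0.80, adjusted p = 0.000414), while ACSS2, the enzyme of cytosol and nucleus, measured 21.57 and 19.40 against 17.21 and 15.89 FPKM (-0.29, adjusted p = 0.0272). The ACSS1 call held in all 10 other settings and without any 1 library, and that of ACSS2 was lost without the minimum level (adjusted p = 0.0732), without the mean-variance trend (0.0588) and without Control replicate 1, Control replicate 2 or siSIRT1 replicate 2 (0.245, 0.0528 and 0.0853). Both proteins are known substrates of sirtuins, ACSS2 of SIRT1 and ACSS1 of the mitochondrial SIRT3, at the level of activity and not of message.

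PDHB, a subunit of pyruvate dehydrogenase, measured 35.78 and 32.30 FPKM in Control, against 23.86 and 23.18 FPKM in siSIRT1 (-0.51, limma adjusted p = 0.00107), and passed in all 10 other settings and without any 1 library. The other pyruvate dehydrogenase subunits of the list went the other way without passing, PDHA1 by 0.12 (adjusted p = 0.284) and DLAT by 0.17 (adjusted p = 0.177). ACAT1, a mitochondrial thiolase, differed by 0.29 (adjusted p = 0.0186) and BRD2, a bromodomain reader, by 0.22 (adjusted p = 0.024). Each passed in only 3 of the 10 other settings, and neither passed under any of the 4 scalings between libraries. Neither call held without Control replicate 1, where the differences were 0.20 for ACAT1 and 0.17 for BRD2. ACLY, which makes cytosolic acetyl-CoA from citrate, did not pass, with a difference of -0.05 (adjusted p = 0.587).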
